A study of Mus musculus with 6 samples.

Results

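The nuclear genes that encode the subunits of the mitochondrial respiratory chain were followed in Treg, the regulatory T cells that hold back immune responses, separated as CD4+CD25+ cells from mice lacking HDAC6 and from wild-type mice. Members were the genes whose symbols start with Nduf, Sdha to Sdhd, Uqcr, Cox4, Cox5, Cox6, Cox7 or Cox8 and that had a probe set naming no other gene. The prefixes found 70 of the 12393 genes on the array. Of these, 34 encode subunits named for complex I, 4 complex II, 8 complex III and 16 complex IV. The remaining 8 (Ndufaf1, Ndufaf3, Ndufaf4, Ndufaf5, Ndufaf7, Sdhaf1, Sdhaf2 and Sdhaf4) encode assembly factors, which help build complexes I and II without staying in them, so 62 members were subunits. Where a gene had several such probe sets, the brightest on average over the 6 arrays stood for it.

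Total RNA was amplified, labelled with biotin and hybridised to 1-colour arrays, with 3 arrays of HDAC6 knockout Treg and 3 of wild-type Treg of the strain labelled C57BL6. HDAC6 is a mostly cytoplasmic deacetylase of tubulin and the chaperone HSP90, and the study's title places both in the function of Foxp3+ Treg. The cells were separated magnetically and described as independent samples. The knockout's strain, the animals' age, and the number of animals behind each sample are not stated in the labels. The p-values therefore measure the spread between these samples. The values are log2 signals, whose medians were 6.22 to 6.27 over the arrays. Foxp3 read 10.18 to 10.40, Cd4 9.63 to 10.01 and Il2ra 9.28 to 9.64 over the 6 arrays. Of 8 listed Treg markers, these among them, 5 were higher and 3 lower in the knockout. Their mean level was 10.30 to 10.36 in the knockout and 10.23 to 10.33 in wild type. In 1 of the 8 (12.5%), Cd3d (-0.11), every knockout array lay below every wild-type array, against 10.3% of all genes. Hdac6 read 7.54, 7.86 and 7.64 in the knockout against 8.54, 8.23 and 8.42 in wild type, differing by -0.71 (SE 0.11, limma's adjusted p = 0.0862); the genotypes did not overlap, and the difference did not pass the threshold of 0.05, except with eBayes trend and robust settings (0.0247). The labels do not say whether these probes fall within the deletion.

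The respiratory chain moves electrons from NADH, through complex I (NADH dehydrogenase), and from succinate, through complex II (succinate dehydrogenase), by way of ubiquinone to complex III (the cytochrome bc1 complex), cytochrome c and complex IV (cytochrome c oxidase), which passes them to oxygen. Complexes I, III and IV pump protons, and ATP synthase uses the gradient. Treg are known for their reliance on mitochondrial oxidation, and Foxp3 is known to favour it.

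The subunit genes differed little between the genotypes. Limma's test, adjusted over all genes, called 0 of 62 subunits, against 0.161% (20) of the 12393 genes, of which 7 were higher (0.0565%) and 13 lower (0.105%) in the knockout. At an unadjusted p under 0.05 there were 3 subunits, Ndufa12, Ndufb2 and Cox6a2 (4.84%), against 11.2% of all genes. The log2 differences, knockout minus wild type, ran from -0.34 (Cox6b2) to 0.41 (Cox6a2), with 26 above and 36 below 0. Their median was -0.02, against 0.00 over all genes and -0.02 over the 7131 genes with a mean log2 value of at least 6, a level that 58 of the 62 subunits reached. The median size of a difference was 0.05 for the subunits and 0.09 for all genes, at median standard errors of 0.07 and 0.09. In 4 subunits (6.45%) every knockout array lay above every wild-type array, against 8.28% of all genes, and in 10 (16.1%) below, against 10.3% of all genes and 15% of those with a mean of at least 6.

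The intervals bound what these arrays could have missed. The 95% interval of the difference, not adjusted for the number of genes, lay wholly between -0.5 and 0.5 for 58 of 62 subunits (93.5%), against 84.2% of all genes. The exceptions were Ndufa12, Ndufs5, Cox6a2 and Cox6b2. No subunit's estimate (0 of 62) reached 1.5-fold, against 1.78% of all genes. In a bulk sample fewer cells of a type and less RNA per cell cannot be told apart.

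**Figure D1:**
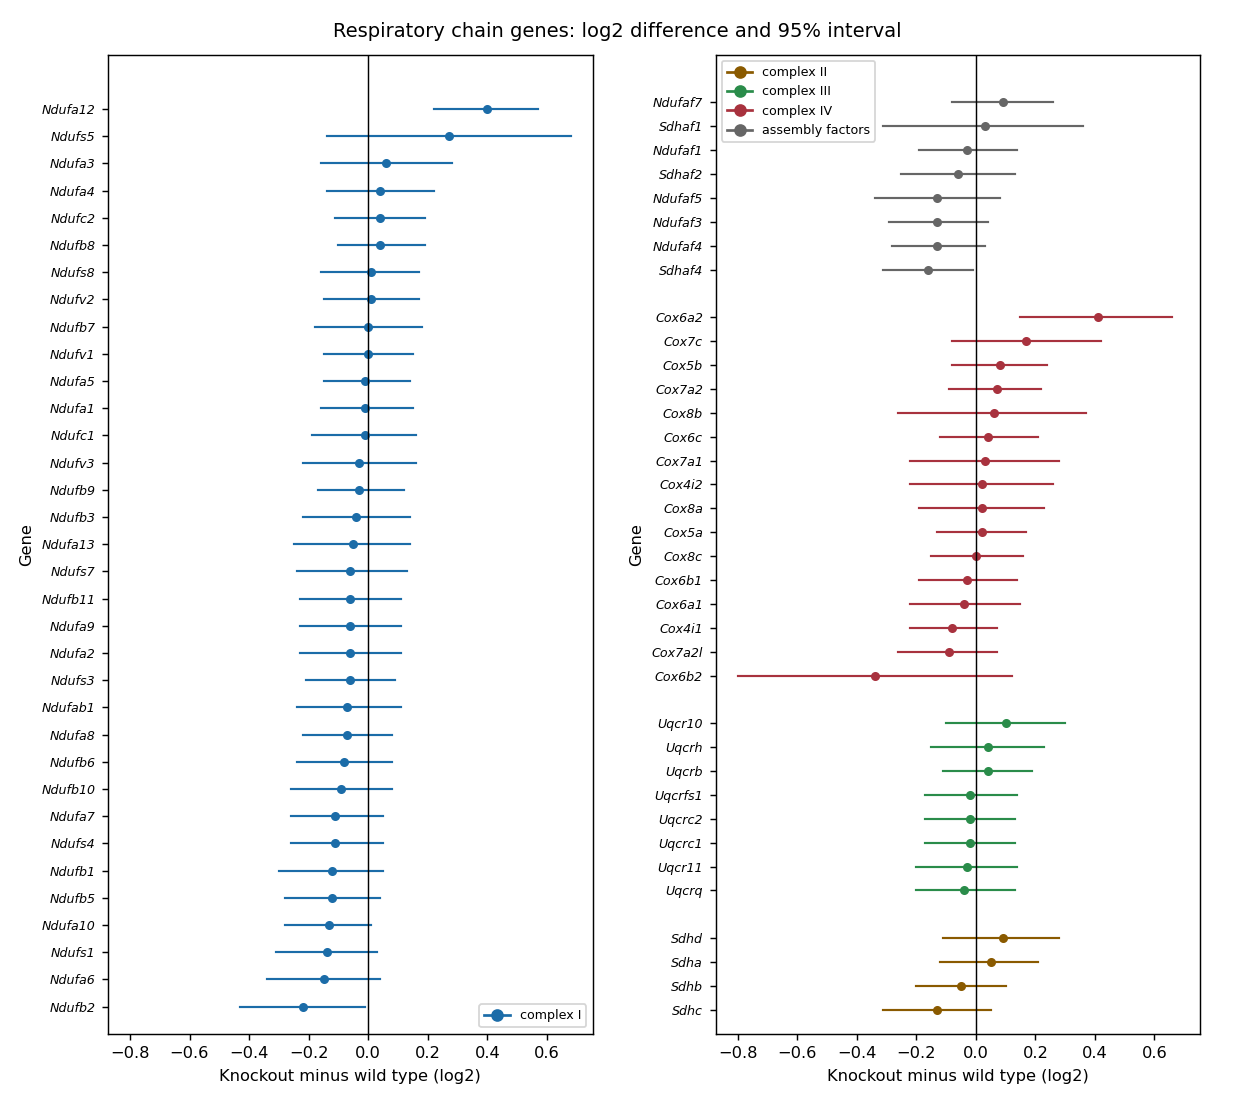
Log2 difference between HDAC6 knockout and wild type (x axis) for each of the 70 members (y axis), with complex I on the left and complexes II, III and IV and the assembly factors on the right. Points are limma estimates and lines their 95% intervals (3 arrays per genotype). Most intervals cross 0, and Ndufa12 (0.40) and Cox6a2 (0.41) stand highest.

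Averaged over the 62 subunits, and set against each gene's wild-type mean, the knockout arrays stood at -0.02, -0.03 and 0.02, against -0.05, 0.03 and 0.02 in wild type. The lowest mean was thus in wild type replicate 1 and the genotypes overlapped. Of the 62 subunits, 21 had their lowest value in knockout replicate 2 and 16 in wild type replicate 1 (33.9% and 25.8%, against 13.2% and 19.6% of all genes), and 2 in wild type replicate 2. The median range among the 3 arrays of a genotype was 0.10 in the knockout and 0.11 in wild type, against 0.19 in both over all genes. The largest ranges were 0.64 for Cox6b2 in the knockout and 0.65 for Ndufs5 in wild type.

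**Figure D2:**
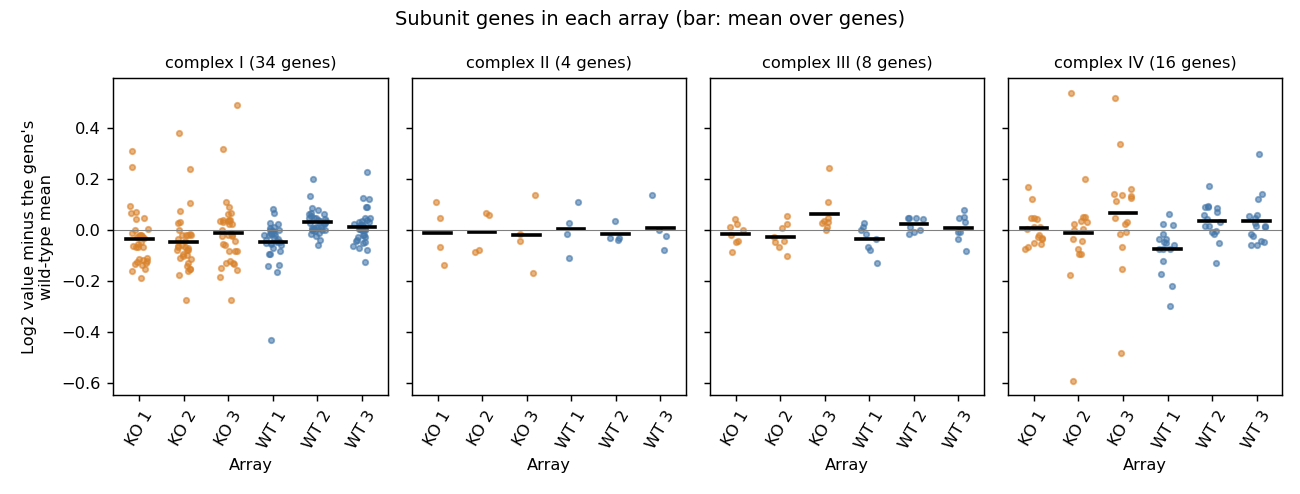
Log2 value of each subunit gene minus that gene's wild-type mean (y axis) in the 6 arrays (x axis; orange knockout, blue wild type), for complexes I to IV. Points are genes, shifted sideways to show them, and bars the means over genes. In complex IV the mean was lowest in wild type replicate 1 (-0.07) and highest in knockout replicate 3 (0.07).

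The promoters were searched for short motifs of factors tied to these genes. Many of these genes are known targets of NRF1 (nuclear respiratory factor 1), of the ETS factor GABP and of YY1. RefSeq windows of the 250 bases before the gene's start (GRCm38.p6) were found for 50 of the 62 subunits and 9882 genes on the array. The NRF1 core, GCGCA and GCGC with any base between them, searched like the others on both strands, was in 6 of the 50 subunits (12%) and in 7.63% of the array's genes. The GABPA core CCGGAAG was in 8 (16%) against 12.9%, and the YY1 core GATGGCGG in 1 (2%, Ndufa7) against 1.6%. The median GC content of these windows was 57% for the subunits and 58.4% for the array's genes. The 13 subunits with any of these motifs had a median difference of -0.03, and the 37 without had -0.02. The windows with most NRF1 matches, those of the complex II flavoprotein gene Sdha and the complex IV gene Cox6a1, are printed. With them are that of Sdhd, which like Cox6a1 holds matches to both NRF1 and GABPA, and that of Ndufa12. The latter held no match, and the gene's probe sets differed most among the complex I genes. Each is written 5′ to 3′ along the gene's strand, with NRF1 and GABPA matches in capitals. Matches are descriptions of letters and not of binding.
Sdha: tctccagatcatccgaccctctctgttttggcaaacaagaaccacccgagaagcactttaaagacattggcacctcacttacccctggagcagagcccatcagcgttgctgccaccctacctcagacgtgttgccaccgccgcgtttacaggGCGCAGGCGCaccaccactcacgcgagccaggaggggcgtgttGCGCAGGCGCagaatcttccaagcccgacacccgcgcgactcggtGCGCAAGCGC
Sdhd: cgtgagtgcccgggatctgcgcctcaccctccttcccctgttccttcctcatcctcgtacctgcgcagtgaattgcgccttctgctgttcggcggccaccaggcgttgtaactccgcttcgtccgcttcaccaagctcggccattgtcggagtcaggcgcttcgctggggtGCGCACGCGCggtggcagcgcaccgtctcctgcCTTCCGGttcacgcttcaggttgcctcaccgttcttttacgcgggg
Cox6a1: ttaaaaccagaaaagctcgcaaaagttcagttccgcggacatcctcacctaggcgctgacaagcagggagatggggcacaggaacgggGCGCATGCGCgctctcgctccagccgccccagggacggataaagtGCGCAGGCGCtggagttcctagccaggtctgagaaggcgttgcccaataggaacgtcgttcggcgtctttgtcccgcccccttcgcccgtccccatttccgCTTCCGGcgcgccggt
Ndufa12: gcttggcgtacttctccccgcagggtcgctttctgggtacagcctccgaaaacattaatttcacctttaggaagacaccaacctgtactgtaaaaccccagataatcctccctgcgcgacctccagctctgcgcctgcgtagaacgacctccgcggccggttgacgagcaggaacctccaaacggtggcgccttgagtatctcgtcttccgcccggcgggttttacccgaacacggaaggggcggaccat
The windows lie at chr13:74350241-74350490 (minus strand), chr9:50603850-50604099 (minus strand), chr5:115348959-115349208 (minus strand) and chr10:94198785-94199034 (plus strand). The Sdha matches begin 98, 55 and 10 bases before the start, and the NRF1 matches of Cox6a1 162 and 117 bases before it. The GABPA match of Cox6a1 begins 16 bases before the start. Sdha differed by 0.05, Sdhd by 0.09 and Cox6a1 by -0.04, and none of these passed the threshold.

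Complex I, the entry point for electrons from NADH, had more genes below than above 0. Of its 34 genes 24 were lower and 10 higher in the knockout, with a median of -0.05, and 0 passed the threshold. Of all 12393 genes 6107 were lower and 6286 higher, and of the 7131 with a mean of at least 6, 4013 and 3118. The counts by direction in the other complexes and lists stand beside the same numbers. In 8 complex I genes (23.5%) every knockout array lay below every wild-type array, and in 3 (8.82%) above, against 15% and 9.09% of genes with a mean of at least 6. The 8 were Ndufa7, Ndufa8, Ndufa10, Ndufb2, Ndufb5, Ndufs1, Ndufs3 and Ndufs4, with differences from -0.22 to -0.06.

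Ndufb2, a small accessory subunit of the membrane arm, read 9.40, 9.26 and 9.26 in the knockout against 9.52, 9.67 and 9.41 in wild type, differing by -0.22 (SE 0.09, limma's adjusted p = 0.412). The gap between the highest knockout and the lowest wild-type array was narrow. Ndufa10 read 10.57, 10.61 and 10.60 in the knockout against 10.70, 10.72 and 10.74 in wild type, differing by -0.13 (SE 0.06, adjusted p = 0.501). Its arrays were tightly grouped within each genotype, with an SD of 0.02 in both (n = 3).

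The core subunits carry the flavin and the iron-sulphur clusters that pass electrons through the complex. Values are given for 6 of them. Ndufs1, the largest of these, read 8.99, 9.10 and 9.02 in the knockout against 9.26, 9.12 and 9.15 in wild type, differing by -0.14 (SE 0.07, adjusted p = 0.539). Ndufs3, Ndufs7, Ndufs8, Ndufv1, which binds NADH, and Ndufv2 differed by -0.06, -0.06, 0.01, 0.00 and 0.01. The 28 other genes named for complex I were counted as accessory, Ndufa4 among them by its name. Of these 28, 21 were below and 7 above 0, with a median of -0.06. The core subunits had 3 below and 3 above 0, with a median of -0.03. This difference was not tested.

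Ndufa6, Ndufs5, Ndufb8 and Ndufa3 showed overlap, a single array that stood apart or a narrow gap between the genotypes. Ndufa6 read 10.82, 10.82 and 10.85 in the knockout against 10.84, 11.03 and 11.07 in wild type, differing by -0.15 (SE 0.08, adjusted p = 0.562) with overlap. Ndufs5 read 9.45, 9.44 and 9.52 in the knockout against 8.77, 9.40 and 9.43 in wild type, so 1 low wild-type array set its difference of 0.27 (SE 0.17, adjusted p = 0.621), which was 0.05 without wild type replicate 1. A probe set that names both Ndufs5 and its pseudogene differed by 0.01 (SE 0.10). Ndufb8 read 9.84, 9.80 and 9.79 in the knockout against 9.77, 9.79 and 9.74 (0.04, SE 0.06), and Ndufa3 12.02, 12.03 and 11.90 against 11.76, 11.96 and 12.05 (0.06, SE 0.09). Ndufb8 did not overlap, by a margin smaller than the spread within either genotype, and Ndufa3 overlapped. Ndufa4, named for complex I and since placed in complex IV, differed by 0.04 (SE 0.07) and was counted with complex I.

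Ndufa12 gave opposite answers from different probe sets. It encodes an accessory subunit at the joint of the matrix and membrane arms. Its brightest probe set read 10.88, 10.95 and 11.06 in the knockout against 10.59, 10.58 and 10.53 in wild type, differing by 0.40 (SE 0.07, 95% interval 0.22 to 0.57), or 1.32-fold, with limma's adjusted p = 0.113. Every knockout array was above every wild-type array. The alternatives gave adjusted p-values from 0.0234, with eBayes trend and robust settings, to 0.958, with the gene's most variable probe set.

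The other bright probe sets of Ndufa12 read the opposite way, also without overlap. The second brightest read 10.04, 9.97 and 10.03 in the knockout against 10.15, 10.27 and 10.35 in wild type, differing by -0.25 (SE 0.08, adjusted p = 0.319 over probe sets). The third read 10.04, 9.98 and 9.97 against 10.09, 10.32 and 10.27, a difference of -0.23 (SE 0.08, adjusted p = 0.381). The fourth was dim at 3.50 to 4.11 and overlapped (-0.04, SE 0.17). Leaving out any 1 array kept the first at 0.35 to 0.44, the second at -0.30 to -0.20 and the third at -0.30 to -0.18. Over all 22626 probe sets the knockout arrays stood apart above wild type in 7.68% and below in 9.48%. The mean over the probe sets of Ndufa12 was -0.03. In this array family the endings _x_at and _s_at mark sets whose probes can match other sequences or several transcripts; the brightest and second sets carry the former and the third the latter. Ndufa12 was the 1 subunit gene whose probe sets differed in sign at an unadjusted p under 0.05 on both sides.

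**Figure D3:**
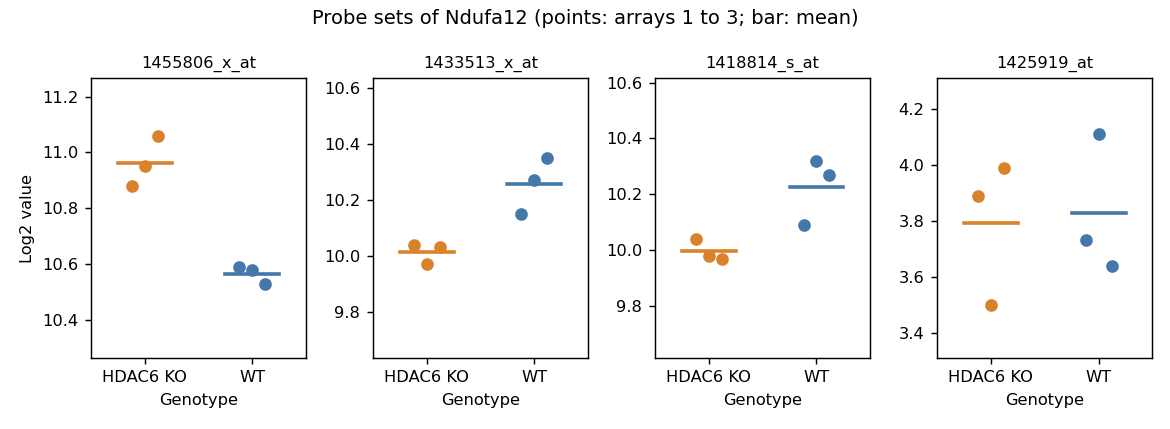
Log2 value (y axis; each panel spans 1 log2 unit) of the 4 probe sets of Ndufa12 in HDAC6 knockout (orange) and wild-type (blue) Treg. Points are arrays and bars means (n = 3). The brightest set is higher in the knockout (0.40), the next 2 are lower (-0.25 and -0.23) and the dim set overlaps.

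Ndufa12 also stands near genes past the threshold. In the RefSeq gene order of chromosome 10, counting measured genes, the secreted netrin gene Ntn4 (-1.63, SE 0.14, adjusted p = 0.0143) was 4 places away and the histidine ammonia lyase gene Hal (-1.18, SE 0.11, adjusted p = 0.0143) 6 places away. The nearest neighbours, Nr2c1 and Tmcc3, differed by -0.02 and 0.23 and did not pass. Of the 70 members, 4 (5.71%) had a gene past the threshold within 10 measured genes, against 2.7% of all genes placed. The others were the assembly factor genes Sdhaf4 (Khdc1a, 6 places), Ndufaf7 (Prkd3, the adjacent gene) and Ndufaf1 (Tmem87a, 10 places). This look at neighbours was chosen after the values of Ndufa12 were seen, and whether position bears on its probe sets was not tested.

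Further probe sets of other complex I genes mostly read lower in the knockout. For Ndufs4, an accessory subunit whose loss is a known cause of Leigh syndrome, the brightest set differed by -0.11 (SE 0.07). Its dimmer sets differed by -0.26 (SE 0.10, unadjusted p = 0.0323 from limma) and -0.36 (SE 0.10, unadjusted p = 0.0108), and the dimmest read 5.76, 5.76 and 5.57 in the knockout against 6.24, 5.96 and 5.96 in wild type. All 5 sets of Ndufa7 were lower, from -0.18 to -0.08. Of the 6 sets of Ndufs8 the brightest was at 0.01 and the others at -0.21 to -0.03. None of these passed after adjustment over probe sets.

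Over the 122 probe sets of the subunits 0 passed, against 0.194% of 22626 probe sets, and 10 (8.2%) had an unadjusted p under 0.05 in limma's fit, against 10.6%. Of those 10, 8 were lower and 2 higher, the latter from Ndufa12 and Cox6a2. The median over the 122 was -0.03. Of the 35 subunit genes with more than 1 probe set, 18 had all sets on the brightest one's side of 0 and 17 had a set on the other side. A further 8 probe sets named a subunit gene beside another gene and were left out; among them the pair shared by Ndufb4, Ndufb4b and Ndufb4c differed by -0.18 and -0.06, that of Ndufa11 by -0.09 and that of Ndufs6 by -0.01.

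Complex II, which also serves the tricarboxylic acid cycle, had 2 genes above and 2 below 0, and 0 passed the threshold. Sdha, the flavoprotein that oxidises succinate, read 10.46, 10.41 and 10.31 in the knockout against 10.38, 10.32 and 10.35 in wild type, differing by 0.05 (SE 0.07, adjusted p = 0.858). The iron-sulphur subunit gene Sdhb read 10.83, 10.81 and 10.88 against 10.88, 10.93 and 10.87, a difference of -0.05 (SE 0.06, adjusted p = 0.808). Both overlapped between genotypes at these probe sets. A dimmer set of Sdha differed by 0.09 (SE 0.06). There every knockout array lay above every wild-type array, as in 7.68% of all probe sets.

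The membrane anchors of complex II, which bind ubiquinone, stood on opposite sides of 0 at their brightest probe sets. Sdhc read 9.42, 9.48 and 9.39 in the knockout against 9.67, 9.52 and 9.48 in wild type, differing by -0.13 (SE 0.08, adjusted p = 0.601). Sdhd read 10.06, 10.08 and 10.15 against 9.90, 9.98 and 10.15, a difference of 0.09 (SE 0.08, adjusted p = 0.741). Sdhc did not overlap between genotypes, with its highest knockout and lowest wild-type arrays both at 9.48, and Sdhd overlapped. The dimmer probe sets of Sdhc and Sdhd differed by 0.02 (SE 0.07) and 0.01 (SE 0.08), both with overlap.

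Among the members, complex III, which hands electrons from ubiquinol to cytochrome c, showed the narrowest spread. Its 8 genes differed by -0.04 to 0.10, with 3 higher and 5 lower, a median of -0.02 and 0 past the threshold. In 0 of 8 were the genotypes apart. Cyc1, a complex III gene that the prefixes leave out, differed by -0.11 without overlap, below the range of these 8. Uqcr10, a small subunit, read 10.60, 10.58 and 10.80 in the knockout against 10.48, 10.60 and 10.59 in wild type, differing by 0.10 (SE 0.09, limma's adjusted p = 0.705). Its dimmer probe sets differed by -0.09 and -0.21, so its direction depended on the set.

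The other complex III members differed by 0.04 or less. Uqcrb read 13.03, 13.06 and 13.04 in the knockout against 12.99, 13.05 and 12.97 (0.04, SE 0.06). Uqcrh, the hinge protein that contacts cytochrome c1, read 11.72, 11.73 and 11.83 against 11.59, 11.77 and 11.80 (0.04, SE 0.08), and Uqcrq 10.69, 10.75 and 10.79 against 10.71, 10.79 and 10.83 (-0.04, SE 0.07). The core proteins Uqcrc1 and Uqcrc2 and the Rieske iron-sulphur protein Uqcrfs1 each differed by -0.02. Uqcr11 differed by -0.03.

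Complex IV, which reduces oxygen, had 11 of 16 genes above and 5 below 0, with a median of 0.02 and 0 past the threshold. Without the 6 tissue-restricted isoforms the split was 6 above and 4 below, with the same median. Cox7c, a small subunit, read 7.73, 7.96 and 8.10 in the knockout against 7.71, 7.85 and 7.72 in wild type, differing by 0.17 (SE 0.11, adjusted p = 0.607) with overlap; it was 0.09 with knockout replicate 3 left out and 0.27 with knockout replicate 1 left out. Its dimmer probe set differed by -0.23 (SE 0.12). Cox7a2l, which is known to link complexes III and IV into supercomplexes, read 11.35, 11.33 and 11.25 against 11.33, 11.42 and 11.46, a difference of -0.09 (SE 0.07, adjusted p = 0.679), also with overlap. The dimmer probe sets of Cox7a2l differed by 0.02 (SE 0.07), with overlap, and by -0.14 (SE 0.07), without overlap. Cox5a, Cox5b and Cox6c differed by 0.02, 0.08 and 0.04.

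Several complex IV subunits exist as isoforms, a ubiquitous one and others confined mainly to muscle, lung or testis. Among the ubiquitous isoforms Cox4i1 read 12.16, 12.14 and 12.17 in the knockout against 12.20, 12.25 and 12.25 in wild type, differing by -0.08 (SE 0.06, adjusted p = 0.697) without overlap. Cox6a1 read 13.08, 13.05 and 13.19 against 13.07, 13.24 and 13.12 (-0.04, SE 0.08). Cox6b1 read 12.06, 12.06 and 12.08 against 12.02, 12.18 and 12.08 (-0.03, SE 0.07). All lay in the upper quartile of the arrays, whose boundary was 8.36 to 8.40. Cox7a2 read 12.03, 12.02 and 12.10 against 11.95, 11.97 and 12.03 (0.07, SE 0.07), and Cox8a 10.52, 10.53 and 10.71 against 10.45, 10.63 and 10.63 (0.02, SE 0.09).

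Of the tissue-restricted isoforms Cox6a2, the heart and skeletal muscle form, differed most. It read 6.44, 6.81 and 6.79 in the knockout against 6.29, 6.22 and 6.30 in wild type, differing by 0.41 (SE 0.11, 95% interval 0.15 to 0.66, limma's adjusted p = 0.226). Every knockout array was above every wild-type array, and knockout replicate 1 lay nearest to wild type. Without that array the difference was 0.53, and without knockout replicate 2 it was 0.34. It has 1 probe set of its own.

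The other restricted isoforms overlapped between genotypes. Cox6b2, the testis form, read 5.66, 5.02 and 5.13 in the knockout against 5.44, 5.48 and 5.91 in wild type, differing by -0.34 (SE 0.20, adjusted p = 0.589). The difference ranged from -0.53 without knockout replicate 1 to -0.19 without wild type replicate 3. Cox4i2, known from lung, read 4.73, 4.77 and 4.71 against 4.50, 4.79 and 4.86 (0.02, SE 0.10), and the muscle form Cox7a1 4.20, 3.90 and 4.22 against 4.03, 4.17 and 4.03 (0.03, SE 0.10). These were dim, near the arrays' lower quartiles of 4.14 to 4.25, where expression is not established without detection calls. The muscle form Cox8b read 4.92, 4.96 and 5.10 against 4.64, 5.11 and 5.06 (0.06, SE 0.13), and the testis form Cox8c 6.58, 6.61 and 6.63 against 6.67, 6.60 and 6.55 (0.00, SE 0.07).

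**Figure D4:**
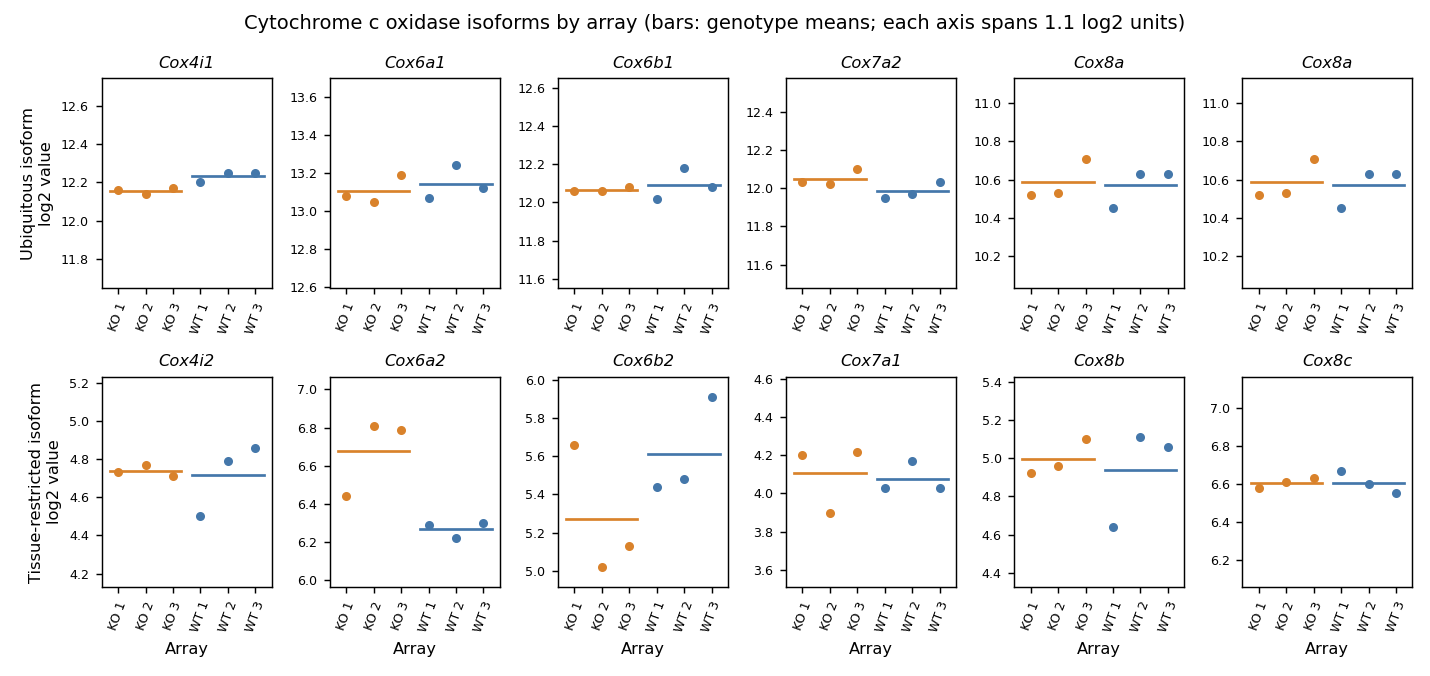
Log2 values (y axes, each spanning 1.1 log2 units at its own level) of ubiquitous (top) and tissue-restricted (bottom) cytochrome c oxidase isoforms in the 6 arrays (x axes; orange knockout, blue wild type; bars are genotype means, and Cox8a stands above both Cox8b and Cox8c). Cox6a2 is the restricted isoform whose genotypes do not overlap (6.44 to 6.81 against 6.22 to 6.30).

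Of the marker lists of other cells, the mean level of the plasma cell list stood apart between the genotypes, and the mean levels of the others overlapped. Of 8 measured plasma cell markers 8 were higher in the knockout, and Igha (1.81, adjusted p = 0.0105) and Igk (2.20, adjusted p = 0.0143) rose; the mean log2 level of the list was 9.94 to 10.41 in the knockout and 9.19 to 9.34 in wild type. The B cell list, with 4 of 9 measured genes higher and 5 lower, had mean levels of 6.53 to 7.11 and 7.02 to 7.28. Of 12 myeloid and dendritic cell markers 3 were higher and 9 lower, with 6.53 to 7.04 and 6.86 to 7.51. CD8 T and NK cell markers gave 7.09 to 7.41 and 7.19 to 7.31, and erythroid and platelet markers 3.79 to 3.98 and 3.93 to 3.95. Single markers in these lists did stand apart. In 2 B cell markers (22.2%), Ms4a1 (-1.13) and Spib (-0.94), every knockout array lay below every wild-type array, against 10.3% of all genes. In 0 B cell markers it lay above, against 8.28%. Cd14 (-0.19), H2-Eb1 (-0.30), Cd8b1 (-0.37) and Hba-a1 (-0.14) also lay apart below, and Cd8a (0.25) above. The part of these cells in the small differences of Cox6a2 and complex I was not tested.

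Assembly factors, which insert cofactors and join subunits, stood mostly below 0. Of the 8 with the members' prefixes 6 were lower and 2 higher, with a median of -0.09, and 0 passed. Sdhaf4, which helps mature the complex II flavoprotein, read 8.63, 8.64 and 8.61 in the knockout against 8.78, 8.76 and 8.82 in wild type, differing by -0.16 (SE 0.06, limma's adjusted p = 0.404) without overlap. The complex I factor gene Ndufaf4 read 8.69, 8.65 and 8.71 against 8.85, 8.83 and 8.75 (-0.13, SE 0.07), also apart. Ndufaf3 read 8.38, 8.45 and 8.47 against 8.48, 8.61 and 8.59 (-0.13, SE 0.07), apart by a narrow margin. Ndufaf5 read 7.29, 7.29 and 7.48 against 7.38, 7.59 and 7.46 (-0.13, SE 0.09) with overlap. Averaged over the 8 and set against the wild-type means, the knockout arrays stood at -0.07, -0.06 and -0.05, against -0.06, 0.03 and 0.03 in wild type, so wild type replicate 1 lay among the knockout arrays.

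Of the other listed assembly factors 26 of 35 were measured, of which 22 were lower and 4 higher, with a median of -0.10 against 0.00 over all genes and -0.02 over those with a mean of at least 6. In 11 (42.3%) every knockout array lay below every wild-type array, against 10.3% of all genes and 15% of those with a mean of at least 6. An unadjusted p under 0.05 in limma's fit was found for 5 (19.2%), against 11.2% and 13.2%. After adjustment 0 passed. The 11 included Timmdc1, Coa3, Coa6, Coa7, Cox16, Cox18 and Lrpprc, which stabilises mitochondrial messenger RNAs. The highest difference in the list was 0.12 (SE 0.09), for the copper chaperone gene Cox19, which was 0.05 without wild type replicate 1 and 0.20 without wild type replicate 2. The difference between assembly factors and subunits was not tested.

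Timmdc1, an inner membrane factor of complex I assembly, differed most of the mitochondrial genes listed. It read 7.17, 7.03 and 6.71 in the knockout against 7.71, 7.72 and 7.94 in wild type, differing by -0.82 (SE 0.13, 95% interval -1.13 to -0.51, limma's adjusted p = 0.0862). All knockout arrays lay below all wild-type arrays. Its adjusted p ranged from 0.0285, with trend and robust settings, to 0.288 without knockout replicate 2, and its difference from -0.92 to -0.69 when 1 array was left out. It has 1 probe set of its own.

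Next to the chain, of 17 ATP synthase genes 12 were lower and 5 higher, with a median of -0.02 and values from -0.11 (Atp5pb) to 0.05 (Atp5md), and 0 passed. Cyc1, the cytochrome c1 of complex III that the prefixes leave out, differed by -0.11 (SE 0.07) without overlap. Cytochrome c, Cycs, differed by 0.03 (SE 0.12) with overlap. The chain's mitochondrially encoded genes had 1 measured gene among them, ND5, at 0.04 (SE 0.09). Of 19 genes listed for the tricarboxylic acid cycle together with pyruvate dehydrogenase and its kinases, 14 were lower and 5 higher. Their median was -0.06 and 0 passed the threshold. Of the 5 higher, Cs and Ogdh encode cycle enzymes, and Dlat, Pdk1 and Pdk2 belong to pyruvate dehydrogenase or its kinases. Dld, the dihydrolipoyl dehydrogenase, differed by -0.28 (SE 0.10, limma's adjusted p = 0.343). The pyruvate dehydrogenase kinase gene Pdk1 differed by 0.28 (SE 0.18, limma's adjusted p = 0.619). For Pdk1 1 low wild-type array, at 8.43, set most of the value, which was 0.08 without wild type replicate 2 and 0.41 without wild type replicate 3.

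The regulators that drive these genes and mitochondrial DNA gave 13 lower and 4 higher of 17 measured, with a median of -0.06 and 0 past the threshold. Polg2, the accessory subunit of the mitochondrial DNA polymerase, read 7.69, 7.77 and 7.67 in the knockout against 8.06, 7.96 and 7.97 in wild type, differing by -0.29 (SE 0.07, limma's adjusted p = 0.192) without overlap. Nrf1 read 7.20, 7.78 and 7.96 against 7.16, 7.49 and 7.40, a difference of 0.29 (SE 0.20, adjusted p = 0.639) with overlap. Leaving out knockout replicate 3 gave 0.14, leaving out knockout replicate 1 gave 0.52, and the mean of its probe sets was 0.08. Gabpa, chosen after its value was seen, read 9.01, 8.77 and 8.57 against 9.16, 9.35 and 8.98, a difference of -0.38 (SE 0.14, adjusted p = 0.373), or -0.20 as the mean of its probe sets. Ppargc1a, a coactivator of mitochondrial genes, was dim at 3.20 to 3.48 and differed by 0.05, and Tfam differed by -0.06.

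**Figure D5:**
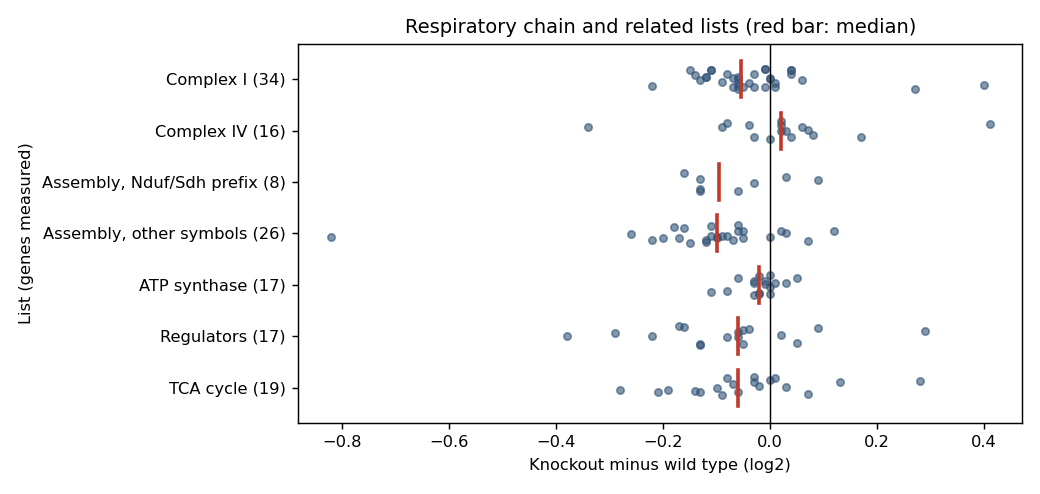
Log2 difference, knockout minus wild type (x axis), of each measured gene in 7 lists (y axis, with the number measured), each point 1 gene and each red bar the list's median. The tricarboxylic acid cycle list also holds pyruvate dehydrogenase and its kinases. The assembly factor lists have the lowest medians (-0.09 and -0.10), and Timmdc1 lies farthest left at -0.82.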

How the data were processed

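The authors deposited normalized log2 values for 22690 probe sets on 6 arrays, made with RMA per the submitters' processing notes, with no version given; the log2 scale was taken from the values' range. RMA can compress changes of dim and of very bright probe sets. The number of arrays limits precision. The 64 control probe sets were not tested. Of the other 22626, 20380 named 1 gene in the platform's annotation, whose gene IDs were looked up in RefSeq (20351 found), 691 several and 1555 none.

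Limma 3.58.1 in R 4.3.3 (lmFit, eBayes, genotype as the only term, two-sided) was fitted over all tested probe sets, with Benjamini-Hochberg adjustment over the 12393 genes, each at its brightest probe set, or over probe sets where so named. Members and lists were chosen with earlier results of these data known, so lists carry counts and medians, not tests. Array values were given for 4 members per complex by smallest p (complex I: 4 higher and 4 lower), all isoform pairs and members whose probe sets disagreed at p under 0.05; of other lists, the smallest p per direction was named. On simulated data for this comparison over 22626 probe sets the fit recovered 0% of changes of 0.25, 20.8% of 0.5 and 84.8% of 1 on the log2 scale. The simulated spreads were drawn for the whole array without regard to brightness. These rates are therefore not specific to the subunits, whose median standard error was 0.07 against 0.09 over all genes. Same-numbered arrays' deviations correlated at 0.22, -0.0944 and 0.103, and those of differently numbered arrays at -0.221 to 0.128. With so few arrays these values cannot settle whether the numbers pair the samples. Python 3.11.15 and matplotlib 3.10.9 made the figures.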

Additional observations from a re-analysis of the deposited data

How the results depend on the processing

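With 3 arrays per genotype small changes could have been missed. Settings were changed one at a time; applying them to the other lists was chosen after seeing the data. With eBayes trend and robust settings 1 subunit gene passed (Ndufa12, adjusted p = 0.0234) and 1 subunit probe set; Timmdc1 (-0.82) and Hdac6 (-0.71) passed there too. The other settings called 0 subunits. Whether the replicate numbers pair the samples could not be settled. With the replicate block 0 subunit genes and 0 probe sets passed, 14 genes in all against 20. The block also leaves less data to estimate the spread, so fewer calls do not exclude pairing. Knockout replicate 1 correlated best with its own number (0.22), knockout replicate 2 with wild type replicate 3 (0.0911) and knockout replicate 3 with wild type replicate 2 (0.128). Counting assembly factors put 4 complex II genes lower, and leaving out tissue-restricted isoforms put 6 complex IV genes higher. Leaving out 1 array gave 2 to 5 complex III genes higher and 3 to 6 lower, and 4 to 8 complex IV genes lower. Of 654 alternative values for 47 named genes 35 turned sign, 20 of them without 1 array. With the mean of a gene's probe sets and with its most variable one, Ndufa12 was -0.03 and -0.04, Uqcr10 -0.07 and -0.21, Uqcrq 0.00 and 0.08, Cox7c -0.03 and -0.23, and Cox6a1 0.01 and 0.06. Quantile normalization gave Cox4i2 -0.01 and ND5 -0.01, and array weights Cox7a1 -0.05, Cox8a -0.01 and Ndufv2 -0.01. Without 1 array the ranges were -0.02 to 0.12 for Ndufa3, -0.02 to 0.05 for Ndufv2, -0.02 to 0.08 for Uqcrh, -0.09 to 0.09 for Cox4i2, -0.08 to 0.01 for Cox6a1, -0.06 to 0.02 for Cox6b1, -0.03 to 0.13 for Cox7a1, -0.04 to 0.05 for Cox8a, -0.09 to 0.15 for Cox8b, -0.03 to 0.03 for Cox8c, -0.05 to 0.15 for Cycs and -0.02 to 0.09 for ND5. Beyond the probe set changes, whose construction shows the cause, the cause was not tested.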
